A study of Culex quinquefasciatus with 7 samples.

Results

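The 49 genes described here had a higher value in each later library of a time course of female Culex quinquefasciatus, a house mosquito of warm regions, that ran from 2 h to 72 h after the adults left the pupal case (eclosion). The genes were chosen by their measured values in these same libraries. A gene was taken when its FPKM (fragments scaled to the length of the gene model and to the mapped fragments of the library) was at least 20 at 72 h, when its value was higher at 12 h than at 2 h and so on at each of the 6 steps up to 72 h, and when log2(FPKM + 1) was higher at 72 h than at 2 h by at least 1 and by less than 2, which is about a 2-fold to 4-fold difference. The table held 20305 genes, of which 3071 reached 20 FPKM at 72 h, and the 49 genes are 1.60% of these 3071. The rule uses all 7 libraries, so the order of the values in time and the size of their change are a description of the selection and carry no test.

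The groups were whole-body pools of females at 2, 12, 24, 36, 48, 60 and 72 h after eclosion, 1 library of 200 females per time, all reared in a cycle of 12 light and 12 dark hours. The labelled tissue and sex were not checked against marker genes, since no gene could be named. No treatment or mutation separated the groups, which differed by label in age alone. From 12 h on, neighbouring times are 12 h apart, so they lie at opposite points of the light cycle. Age and time of day therefore cannot be told apart between neighbouring libraries. No time was sampled more than once, so no value has an error from replicates. Because whole bodies were pooled, more cells of a type and more RNA per cell cannot be told apart.

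The first days of adult life in a female mosquito are the previtellogenic period. In this time the fat body, the insect organ of storage and protein secretion, becomes able to make yolk proteins after a blood meal, and the ovarian follicles grow to a stage at which they wait for that meal. Juvenile hormone, released by the corpora allata near the brain, is known to drive both processes in the mosquito Aedes aegypti. The genes appear under identifiers that begin with CPIJ, which the RefSeq table used, with 18458 genes, does not hold (0 of 20305 matched), so no gene is given a name or a role and gene lists by function were not used here.

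Across the 7 libraries the whole table shifted, and values after removal of this shift are given beside some of the results it touches. Where no rescaled value is given, results on FPKM, steps and courses are from the deposited values and include the shift. From the median ratio over 2761 genes that reached 10 FPKM in all libraries, the factors of the libraries were 0.772, 0.919, 1.08, 1.02, 1.10, 1.02 and 1.15 in order of time. On the log2 scale a typical gene was therefore higher by 0.57 at 72 h than at 2 h. "Rescaled" values below are FPKM divided by these factors.

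The 49 genes together held 7.36% of all FPKM at 72 h, against 2.43% at 2 h. Their share of the library was 2.43%, 2.96%, 4.79%, 5.48%, 6.52%, 7.04% and 7.36% at 2, 12, 24, 36, 48, 60 and 72 h. The summed value was 36577 FPKM at 72 h, against 10492 FPKM at 2 h, a ratio of 3.49, while the sum over all 3071 genes with at least 20 FPKM at 72 h had a ratio of 1.28. The ratio between the shares of the library at 72 h and 2 h was 3.03, and the ratio between the rescaled sums was 2.34, where the ratio between the rescaled sums over all 3071 genes was 0.858.

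Most of that sum came from a few very abundant genes. At 72 h the genes ranged from 20.6 to 4394 FPKM with a median of 46.7, and at 2 h from 5.70 to 1177 FPKM with a median of 13.2. They were divided into 3 bands, set at 100 and 1000 FPKM at 72 h after the values were seen. In the top band, 12 genes stood between 1534 and 4394 FPKM at 72 h and between 552 and 1177 FPKM at 2 h, and they held 6.64% of the library at 72 h, against 2.16% at 2 h. In the middle band, 7 genes stood between 146 and 613 FPKM at 72 h and between 38.8 and 226 FPKM at 2 h. In the bottom band, 30 genes stood between 20.6 and 79.4 FPKM at 72 h and between 5.70 and 27.7 FPKM at 2 h, and they held 0.204% of the library at 72 h, against 0.0739% at 2 h.

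**Figure D1:**
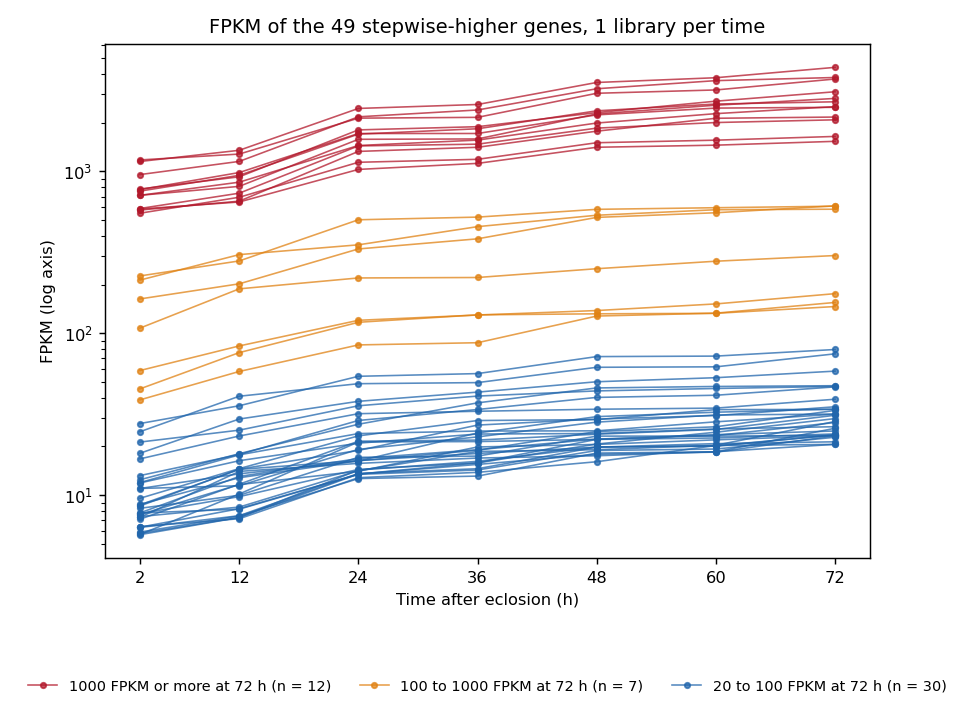
FPKM (log axis) of the 49 genes against time after eclosion, 1 line per gene and 1 library per time, coloured by the band of FPKM at 72 h. The 12 genes of the top band stand apart at 1534 to 4394 FPKM at 72 h, and 30 genes lie below 100 FPKM.

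The most abundant gene of the set was CPIJ015042, with 1152, 1351, 2449.7, 2591, 3544, 3791 and 4394 FPKM at 2, 12, 24, 36, 48, 60 and 72 h. Its largest step lay between 12 and 24 h, and it ranked 5th in the whole table at 72 h, against 51st at 2 h. CPIJ001270 came next, with 956, 1153, 2174, 2396, 3242, 3638 and 3804 FPKM. It took the same course, ranked 7th at 72 h, against 67th at 2 h, and its change of 1.99 on the log2 scale was among the 2 largest of the set. The other of these 2 was CPIJ005878, at 779, 926, 1805, 1889.5, 2309, 2716 and 3105 FPKM.

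After rescaling, these 3 genes remained higher at 72 h than at 2 h, by 1.36 for CPIJ015042, 1.42 for CPIJ001270 and 1.42 for CPIJ005878. None of the 3 kept a higher value at every step.

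The smallest changes were less than 1.2 on the log2 scale and came from genes of low abundance. CPIJ012794 had 11.9, 16.3, 21.0, 23.9, 24.1, 25.7 and 26.5 FPKM, a change of 1.09 between 72 h and 2 h. CPIJ010794 had 21.3, 25.2, 35.7, 40.9, 44.1, 45.6 and 47.0 FPKM, a change of 1.11. Both had gained most of their change by 36 h, with 86.7% and 82.5% of it reached, and after rescaling the change was 0.55 for each of them.

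Over the set, the median change was 1.69 with quartiles of 1.48 and 1.86, within the bounds of the rule. It was 1.02 over all 3071 genes, of which 51.2% passed a 2-fold increase at 72 h relative to 2 h. After rescaling, the median change of the 49 genes was 1.12, the lowest 0.55 and the highest 1.47. All 49 thus stayed above 0, where 2050 of the 3071 genes did. The bound of 1 fixes this for the set, since the shift removed was 0.57. It held as well in 951 of the 951 genes with a change in the same bounds that were not higher at every step. At or above 1 stayed 33 of the 49 genes, where 389 of those 951 genes and 32.3% of the 3071 did so.

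The name "gradual" describes these genes only in part, since their change was concentrated in the first day. At 24 h, 31.4% of the time from 2 to 72 h had elapsed. With the deposited values the genes had then reached a median of 61.4% of their log2 change, and all 49 were ahead of an equal change per hour. Ahead as well were 923 of the 951 genes of like change that were not higher at every step. The same held for 91 of the 91 genes that were higher at every step and changed by 2 or more. The median part reached by the 49 genes was 20.8%, 61.4%, 69.8%, 87.2% and 92.1% at 12, 24, 36, 48 and 60 h. After rescaling it was 7.62%, 50.4%, 69.8%, 86.6% and 102% at these times. Not all 49 genes were then ahead at 24 h: CPIJ008396 had rescaled steps of 0.047 and 0.022 up to that time, in a rescaled change of 1.01. With the deposited values, the point of 50% was passed between 12 and 24 h in 40 genes, between 2 and 12 h in 3 genes, between 24 and 36 h in 6 genes and later in 0. Between 12 and 24 h it was also passed in 62.6% of those 951 genes and in 81.3% of those 91, so this timing is not particular to the set. Because of their uneven courses the 49 genes are called the stepwise-higher genes here.

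The 3 genes that passed 50% by 12 h were CPIJ004780, CPIJ001676 and CPIJ003399. CPIJ004780 had 7.30, 14.0, 15.7, 17.0, 17.5, 18.6 and 20.6 FPKM, so that 62.0% of its change lay before 12 h and each later step was small. CPIJ001676 had 8.71, 14.4, 16.4, 18.1, 19.8, 20.8 and 21.4 FPKM, with 55.4% before 12 h. CPIJ003399, from the middle band and singled out after its values were seen, had 108, 188, 220, 221, 251, 279 and 302 FPKM, with 54.1% before 12 h.

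At the other end, 2 genes had the smallest part of their change behind them at 48 h. CPIJ001754 had 7.38, 8.45, 14.2, 18.6, 19.1, 20.4 and 28.5 FPKM, which is 69.5% at 48 h and a last step of 0.47, the largest of the set between 60 and 72 h. CPIJ014795 had 7.69, 9.80, 14.4, 15.8, 20.7, 24.5 and 29.7 FPKM, which is 72.5% at 48 h. CPIJ014795 was also the gene nearest to an equal change per hour, with a largest departure of 14.0 percentage points, and its smallest step, 0.12, was the largest smallest step of the set.

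CPIJ010870 came next in evenness, at 8.76, 12.8, 16.3, 18.9, 24.7, 26.5 and 33.4 FPKM, with a largest departure of 14.1 points. Both of these even courses were still higher at every step after rescaling. The second largest smallest step, 0.11, was that of CPIJ004532 from the top band, at 712, 858, 1446, 1561, 1990.2, 2275 and 2514 FPKM. It was the only one of these 3 genes that lost its order after rescaling.

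2 further courses stood out and were singled out after their values were seen. CPIJ001284 had 5.72, 10.2, 21.3, 21.4, 22.1, 22.6 and 23.9 FPKM, with 91.7% of its change reached at 24 h and a nearly level course from then on. CPIJ008396 had 11.0, 13.6, 16.3, 24.2, 30.6, 32.6 and 34.1 FPKM. With the deposited values it was the 1 gene whose largest step, 0.55, lay between 24 and 36 h. After rescaling this step was 0.63, and other genes also had their largest step there, among them CPIJ017606 at 0.58 and CPIJ010111 at 0.55.

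The bands differed in how much was gained by 12 h and in how alike their courses were. Genes of the top band had reached between 7.26% and 20.8% of their change at 12 h, with a median of 13.1%. The middle band ranged from 16.2% to 54.1% with a median of 31.9%, and the bottom band from 3.52% to 62.0% with a median of 25.5%. At 24 h the medians lay close together, at 60.1%, 65.2% and 61.5% from the top to the bottom band. Over the 66 pairs of top-band genes, the root mean square distance between courses, in percentage points of change reached over the 5 inner times, had a median of 5.95, against 13.2 over the 435 pairs of bottom-band genes. Across the 49 genes, which share the same 7 libraries, the part reached at 12 h and log2 FPKM at 72 h had a Pearson r of -0.35 and a Spearman rho of -0.22, given as a description. Higher FPKM rest on more fragments for a gene of the same length, and how far this sets the narrower spread of the top band was not tested.

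**Figure D2:**
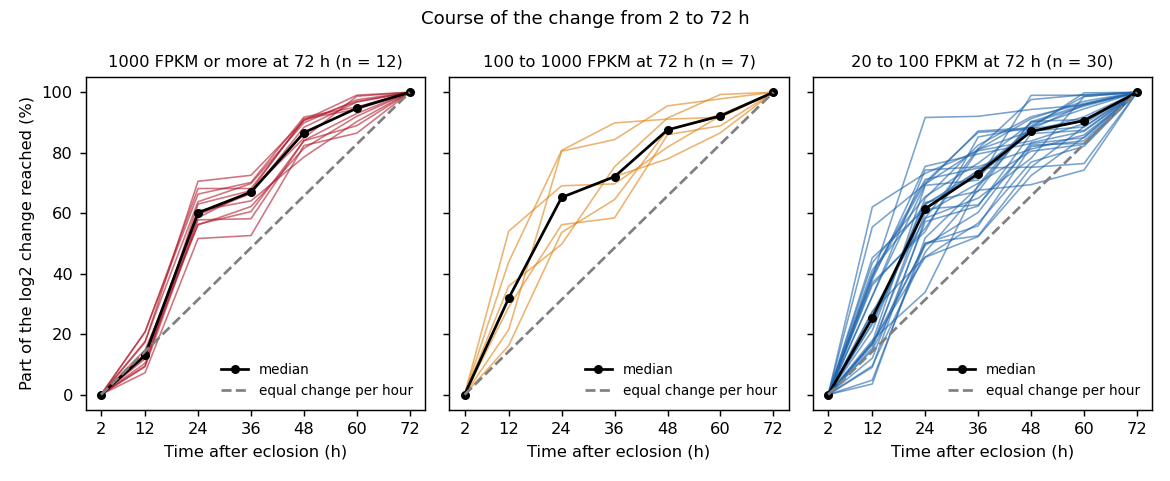
Part of the log2 change from 2 to 72 h that was reached at each time (percent), 1 coloured line per gene in 3 bands of FPKM at 72 h, with the band's median in black and an equal change per hour dashed. The top band stays between 7.26% and 20.8% at 12 h and is between 51.6% and 70.6% at 24 h, while the bottom band spans 3.52% to 62.0% at 12 h.

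Step by step, the largest median step lay between 12 and 24 h, with the deposited and with the rescaled values. Over the 6 successive intervals, the median step of the 49 genes was 0.33, 0.67, 0.11, 0.29, 0.088 and 0.14 on the log2 scale, and after rescaling 0.089, 0.43, 0.20, 0.18, 0.18 and -0.025. After rescaling the step from 2 to 12 h was thus smaller in the median than each of the 3 steps between 24 and 60 h. With the deposited values, the largest step of a gene lay between 12 and 24 h in 33 genes, between 2 and 12 h in 15 and between 24 and 36 h in 1. Steps of at least 0.5 were found in 34 of 49 genes from 12 to 24 h, where 42.4% of the 3071 genes had one, and in 17 of 49 from 2 to 12 h, where 37.0% did. From 24 h on such steps were few: in the intervals that ended at 36, 48, 60 and 72 h they were found in 1, 2, 0 and 0 of the 49 genes, where 8.01%, 9.28%, 2.34% and 14.8% of the 3071 genes had one. The rule bounds the sum of the steps below 2, so the low counts after 24 h are partly set by it.

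Over the 3071 genes, the median step was 0.34 in the interval that ended at 12 h, where the set had 0.33, and 0.41 in the one that ended at 24 h, where the set had 0.67. In the intervals that ended at 36 and 60 h it was -0.067 and -0.096. There every gene of the set was above 0 by the rule, and 41.3% and 33.1% of the 3071 genes were higher. From 60 to 72 h the order turned round: the median step of the set was 0.14, that of all 3071 genes 0.23, and 8 of the 49 genes had a step above the median of all 3071. In the top band 0 of 12 genes did, and its median step from 60 to 72 h was 0.078.

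Up to 48 h the top band had the most uniform steps. With the deposited values, all 12 of its genes had a step of at least 0.5 from 12 to 24 h, between 0.67 and 1.02. From 2 to 12 h 0 of 12 had one, and their steps lay between 0.12 and 0.35, with a median of 0.26. After rescaling, that median was 0.0090. In all 12, the step from 36 to 48 h was larger than the steps on either side of it, and this held in 33 of the 49 genes and in 61.5% of the 3071 genes. After rescaling it held in 9 of the 12, in 18 of the 49 and in 41.6% of the 3071. From 48 to 60 h the quartiles of the step lay widest apart in the top band, at 0.090 and 0.181. They were 0.046 and 0.124 in the middle band and 0.028 and 0.090 in the bottom band.

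**Figure D3:**
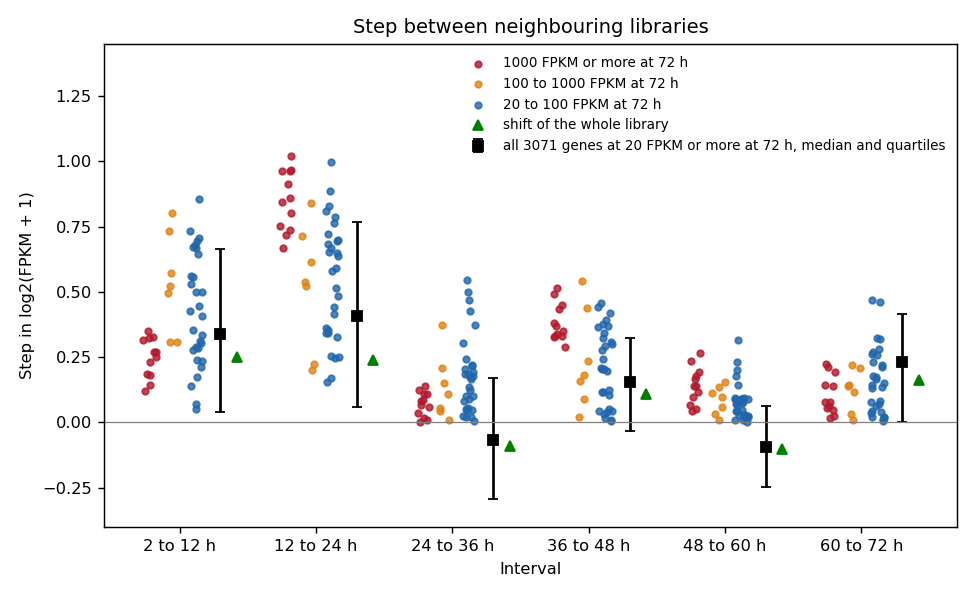
Step in log2(FPKM + 1) between neighbouring libraries, 1 point per gene in 3 bands of FPKM at 72 h; black squares with bars give the median and quartiles of all 3071 genes that reached 20 FPKM at 72 h, and green triangles the shift of the whole library. The points lie above the black squares in all 49 genes for the intervals that ended at 36 and 60 h, and in 8 of 49 genes for the last interval.

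Many of the orderings rested on small steps. The smallest step of a gene had a median of 0.034, and 33 genes had every step at or above 0.02, 14 at or above 0.05 and 2 at or above 0.1. The smallest step lay between 48 and 60 h in 18 genes, between 60 and 72 h in 13, between 24 and 36 h in 12, between 36 and 48 h in 6, and in the first day in 0. CPIJ008265, a top-band gene, met the rule by the narrowest margin, with 772, 984, 1715.1, 1715.3, 2235, 2461 and 2489 FPKM. Its values at 24 and 36 h differed by 0.00014 on the log2 scale, and without a replicate a step of that size has no error to set it against.

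Just outside the rule were many genes of the same size of change. Of the 1000 genes with at least 20 FPKM at 72 h and a change of at least 1 and below 2, 951 were not higher at every step, and 341 of these missed at exactly 1 step. The missed step ended at 60 h in 153 genes, at 72 h in 96 genes, at 36 h in 69 genes and at 48 h in 12 genes, and it lay in the first day in 11 genes. It was missed by less than 0.05 in 64 of the 341 genes. The nearest was CPIJ005414, at 25.2 FPKM at both 60 and 48 h, with a step of -0.0022. Left without 1 library, and so with 1 step fewer to pass, the rule took 78 genes without the 2 h library, 59 without 12 h, 117 without 24 h, 95 without 36 h, 172 without 48 h, 225 without 60 h and 146 without 72 h. Without 2 h the change was counted from 12 h, and 36 of the 49 genes were kept. Without 72 h the change and the minimum of 20 FPKM were taken at 60 h, and 44 of the 49 were kept. Each of the other runs kept all 49.

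The nearest genes to 20 FPKM at 72 h were CPIJ012775 inside, at 20.6 FPKM, and CPIJ004358 outside, at 19.9 FPKM. At the lower bound of change, CPIJ012794 was inside at 1.09 and CPIJ005304 outside at 0.99. At the upper bound, CPIJ005878 was inside at 1.99 and CPIJ010583 outside at 2.01.

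The top band had many neighbours in abundance with a like course. Of the 95 genes with at least 1000 FPKM at 72 h, 68 had a change of at least 1 and below 2, and the 12 of the set are among them. The other 56 had a median change of 1.63 and had reached medians of 14.7% at 12 h and 62.8% at 24 h, where the 12 genes had 13.1% and 60.1%. They parted most often at the end of the series: 37 of the 56 were not higher at 72 h than at 60 h, with a median last step of -0.14. In the intervals that ended at 12, 36, 48 and 60 h, 2, 18, 1 and 9 of the 56 were not higher. In all, 46 of the 56 missed the rule at exactly 1 step. A miss at any step kept a gene out of the set, so these differences are a description.

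Genes that were higher at every step but changed by 2 or more numbered 91, and those that changed by less than 1 numbered 7. The 49 genes and the 91 steeper ones had close medians once each gene was set to its own change, with 20.8% and 21.6% reached at 12 h, 61.4% and 59.1% at 24 h, and 87.2% and 88.6% at 48 h. The 951 genes of like change without the order had reached medians of 32.7%, 73.9% and 80.5% at 12, 24 and 60 h. In all, 147 of the 3071 genes, 4.79%, were higher at every step.

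Rescaling of the libraries changed which genes kept the order. After it, 11 of the 49 genes were still higher at every step, where 4.36% of the 3071 genes were. Of the other 38, 21 missed at 1 step and 17 at 2 or more. The last step, from 60 to 72 h, stayed above 0 in 19 of the 49 genes, where 58.9% of the 3071 genes were higher in that interval after rescaling. The first, from 2 to 12 h, stayed above 0 in 37 of 49 genes (60.0% of the 3071). In the intervals that ended at 24, 36, 48 and 60 h, the step stayed above 0 in 45, 49, 38 and 49 of the 49 genes, where 63.1%, 52.5%, 57.0% and 50.5% of the 3071 genes were higher. The count of 49 in the intervals that ended at 36 and 60 h was fixed by the rule. The library factor fell in both, by 0.091 and 0.10 on the log2 scale, and division by a falling factor enlarges a step already above 0. The 11 genes lay between 23.3 and 155 FPKM at 72 h, 10 of them in the bottom band, 1 in the middle band and 0 in the top band. In the top band 9 of 12 genes were not higher at 72 h than at 60 h after rescaling, and 6 of 12 were not higher at 12 h than at 2 h.

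**Figure D4:**
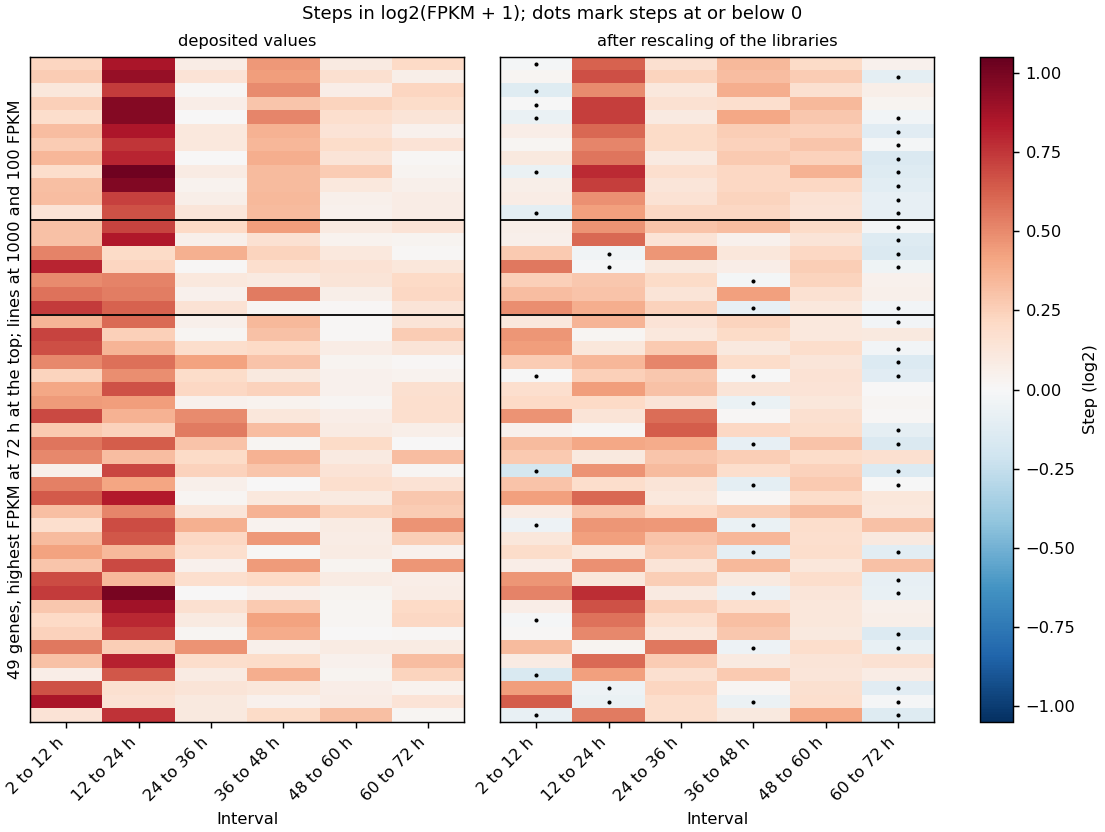
Steps in log2(FPKM + 1) between neighbouring libraries (colour scale, log2) for the 49 genes in rows, from the highest to the lowest FPKM at 72 h, with lines at 1000 and 100 FPKM; the left map uses deposited values, the right map rescaled ones, and dots mark steps at or below 0. After rescaling, the dots gather in the step from 60 to 72 h, where 30 of 49 genes have one.

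The rank of a gene within its library does not depend on any scaling of that library. All 49 genes had a better rank at 72 h than at 2 h among the 20305 genes, where 67.5% of the 3071 genes did, and the median rank of the set was 1315 at 72 h, against 2784 at 2 h. In the top band the median rank was 24.5 at 72 h, against 106 at 2 h, and 12 of the set's genes were among the 100 most abundant at 72 h, against 6 at 2 h. Over the 6 successive intervals, a better rank was reached by 42, 47, 47, 35, 42 and 30 of the 49 genes, and by 64.1%, 63.8%, 51.4%, 55.8%, 48.9% and 61.2% of the 3071 genes. At every step in a row, 14 of 49 genes had a better rank, where 4.85% of the 3071 did. The ranks come from the values that chose the genes, so these counts are a description.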

How the data were processed

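Messenger RNA of 7 pools was sequenced from both ends, 51 nucleotides each, of inserts that averaged 200 nucleotides, per the labels' protocols. The deposited table gives 1 value per gene and library. The authors' values were read as FPKM: per the file headers only gene and hour are named, and the unit rests on the pipeline of TopHat, Cufflinks and Cuffdiff in the series' design text and on values that are not whole. CASAVA 1.8 and Trimmomatic are listed per the submitters' processing notes. No source used here gives the genome build, gene annotation, strand use or any scaling between libraries. Reads shared by similar genes could be split between them in an unknown way.

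The absolute depth is unknown. Steps among values below 0.3 FPKM gave depths relative to 2 h of 0.930, 1.02, 0.796, 0.832, 0.746 and 1.19 at 12, 24, 36, 48, 60 and 72 h. No counting interval was computed.

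Python 3.11.15 with numpy 2.4.6, pandas 2.3.3, scipy 1.17.1 and matplotlib 3.10.9 applied the rule to log2(FPKM + 1), on which the change of low values is understated. With 1 library per time, a step of at least 0.5 (log2) stands in for a test. The code of the rule and the rescaling was tested on simulated data with even planted rises and very little noise. That test does not bear on how reliable the small steps of these genes are. The genes given by identifier include the 2 with the highest level, the 2 largest changes and the 2 smallest. Also given are the 2 with the most reached by 12 h, the least reached by 48 h, the most even course and the largest smallest step. The rest are the nearest to each bound and those said to be singled out. The members and measures were chosen with earlier results of these data known. Gene lists could not be built without names. Alternatives were rescaling, pseudocounts of 0.1 and 5, minimum values of 10, 50 and 0 FPKM, a least step of 0.05, and each library left out.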

Additional observations from a re-analysis of the deposited data

How the results depend on the processing

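The rule took 57 genes after rescaling by the median ratio and 51 after rescaling to an equal sum, but 11 and 23 of them were among the 49. It took 44 genes with a pseudocount of 0.1, of which 42 were among the 49, and 42 genes by rank in place of FPKM, an alternative chosen after seeing the data, of which 14 were. The count was 81 with a pseudocount of 5, of which 46 were among the 49, and the cause was not tested. It was 148 with a minimum of 10 FPKM, 22 with 50 FPKM, 365 with no minimum and 14 with every step at least 0.05, because these settings admit more or fewer genes by construction. Leaving out each library in turn gave 59 to 225 genes.

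After rescaling, the median change of the 49 genes was 1.12, the median part reached was 50.4% at 24 h and 102% at 60 h, and the median steps that ended at 12, 60 and 72 h were 0.089, 0.18 and -0.025. The last of these turned its direction, which follows from the size of the rescaling factors. The other 40 alternative values stayed within 1.5 times for counts, and within 1 SD over the genes for medians. No paired analysis was possible because no time was sampled more than once. Depth bears most on the bottom band. The library at 60 h was the shallowest by the estimate from values below 0.3 FPKM, with 0.746 of the depth at 2 h. In that estimate 7.98% of genes lay at the commonest ratio, the lowest share of any time.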

Other observations

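By identifier number, 0 of the 49 genes had another of the set at the next identifier number, and 5 had one within 5 numbers, which is 10.2% of the set, where 3.03% of the 3071 genes with at least 20 FPKM at 72 h had a gene of the set that near. The pairs within 5 numbers were CPIJ001284, CPIJ001287 and CPIJ001289 with each other, and CPIJ008391 with CPIJ008396. The first 3 stood at 23.9, 74.7 and 610 FPKM at 72 h, against 5.72, 24.7 and 226 FPKM at 2 h, so that CPIJ001289 lies in the middle band of abundance and the other pair in the bottom band. They were singled out after their values were seen, and no position in the genome is read from an identifier.

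The single closest pair of courses in the set joined 2 genes of very different abundance. CPIJ015042, at 4394 FPKM at 72 h, and CPIJ001346, at 23.6 FPKM, differed by a root mean square of 1.58 percentage points in the part of their change reached at the 5 inner times, the smallest of 1176 pairs. CPIJ001346, singled out after its values were seen, had 6.32, 7.47, 13.6, 14.6, 19.8, 20.1 and 23.6 FPKM. The farthest pair was CPIJ001284 and CPIJ014795, at 30.9 points.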
